A study of Drosophila melanogaster with 6 samples.

Results

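A group of 22 genes that the deposited data name only by a CG number was near silence in wild-type larvae at the blue gut stage and well expressed at the clear gut stage. They were chosen as the entries with a symbol of CG and digits that measured below 1 RPKM in wild type at blue gut and at least 10 RPKM in wild type at clear gut, with a dash read as 0. RPKM is a read number scaled to gene length and to the depth of the library. The rule left 22 of 15741 entries, and of 7371 entries with a CG symbol. Both wild-type libraries chose these genes, so their wild-type values are a description, and the stage change was examined in the depletion libraries.

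A CG symbol is what genome annotation gives a predicted gene before it is named for a function. Wandering larvae leave the food as ecdysone, the steroid hormone of moulting, builds up towards pupariation, when the larval cuticle is tanned into the pupal case. The larval gut, muscle and salivary glands are dismantled in the metamorphosis that follows. Trr is a histone methyltransferase that acts at enhancers, Cmi belongs to the same COMPASS-like complex, and in flies Trr is known as a partner of the ecdysone receptor.

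RNA came from whole wandering larvae of the last instar raised at 25 °C, from pools of more than 20 animals. Clear gut is the later and blue gut the earlier part of wandering. The 3 genotypes were Trr depletion by a short hairpin RNA, Cmi depletion by a short hairpin RNA, and wild type, at 2 stages each, with 1 library for each of the 6 groups. Both hairpins were driven by GawB69B Gal4, a line used for expression in the epidermis and imaginal discs, so other tissues of these whole larvae may hold undepleted cells. The labels do not say whether the wild type carried the driver. With 1 pool per group, a difference between genotypes and a difference between pools, exact age included, cannot be told apart, and in whole larvae fewer cells of a type and less RNA per cell cannot be told apart.

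The libraries held 23.9 M, 25.0 M and 24.2 M reads on genes at clear gut and 23.3 M, 23.6 M and 23.1 M at blue gut, in the order labelled Trr depletion, Cmi depletion and wild type. The targeted genes differed little from wild type, and not always downwards. Lpt, the gene of Cmi, stood at 0.767 (0.687 to 0.856) times wild type at clear gut and 0.797 (0.705 to 0.900) times at blue gut in Cmi depletion. In the libraries labelled Trr depletion the gene trr was at 0.769 (0.705 to 0.838) of its wild-type level at clear gut. At blue gut trr was at 1.23 (1.10 to 1.38) of that level, against the label. Cmi depletion, where trr is not the target, also exceeded wild type at blue gut, at 1.53 (1.38 to 1.71) times. Its clear gut value was 0.958 (0.884 to 1.04) times wild type. With Cmi depletion as the reference, trr was lower under the Trr label. The RPKM values were 4.757 and 5.925 at clear gut, and 3.6 and 4.488 at blue gut, labelled Trr depletion first. That difference was not tested. Intervals are exact 95% counting intervals of 2 libraries and hold no spread between pools.

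**Figure D1:**
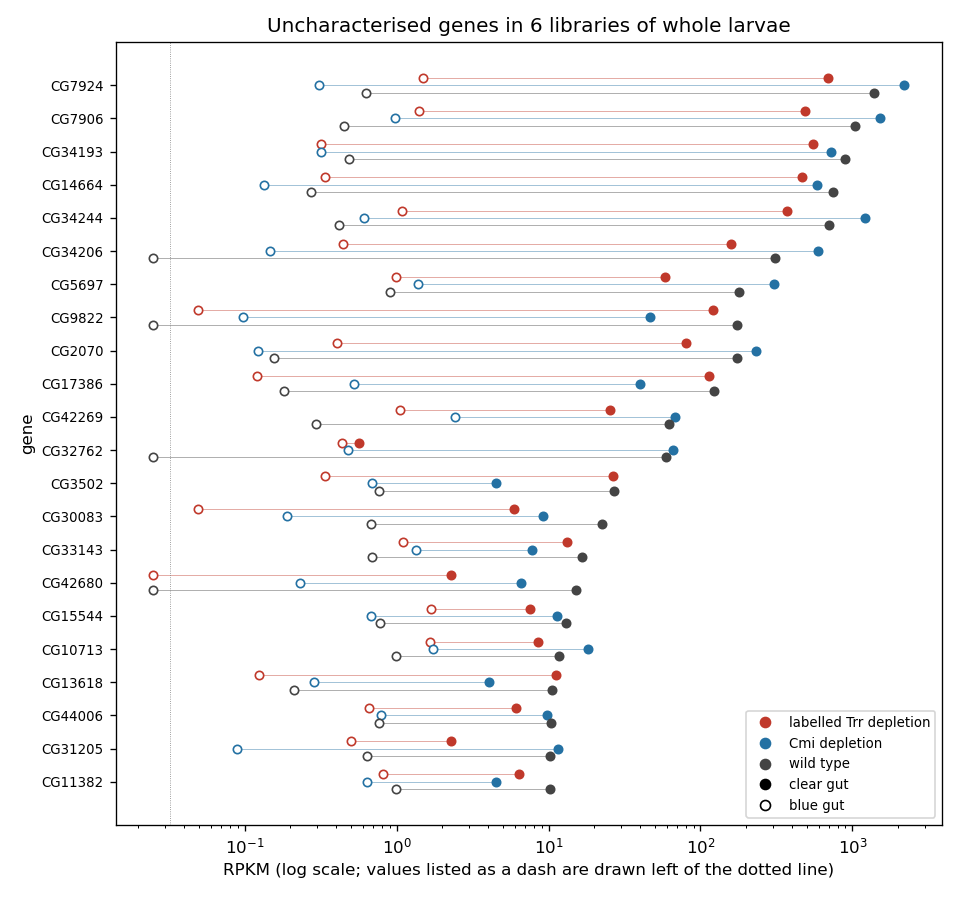
RPKM of the 22 genes (log axis) in the 3 clear gut libraries (filled) and the 3 blue gut libraries (open), coloured by genotype and ordered by wild type at clear gut. In every genotype and gene the filled point lies right of the open one, by the least for CG32762 in labelled Trr depletion (0.570 against 0.439 RPKM).

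The genes span a wide range of levels. At clear gut they measured 0.570 to 689 RPKM in labelled Trr depletion (median 26.1), 4.04 to 2199 RPKM in Cmi depletion (median 43.2) and 10.3 to 1383 RPKM in wild type (median 60.6). At blue gut their medians were 0.472, 0.504 and 0.467 RPKM in the same order of genotypes. The 6 genes highest in wild type made up 84.7%, 89.0% and 84.7% of the summed RPKM of all 22 at clear gut, in that order. Together the 22 genes took 0.366%, 0.820% and 0.660% of the reads at clear gut in labelled Trr depletion, Cmi depletion and wild type, against 0.00310%, 0.00315% and 0.00208% at blue gut. At blue gut the counts were few, with 0 to 164 reads per gene in labelled Trr depletion, 1 to 152 in Cmi depletion and 0 to 76 in wild type, so folds of single genes against blue gut are loosely known.

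Low values at blue gut were also seen in the libraries that the rule did not use. Of the 22 genes, 15 in labelled Trr depletion and 18 in Cmi depletion were below 1 RPKM at blue gut, 14 in both, where 28.2%, 28.6% and 26.7% of all 15741 entries were. The highest was CG42269 with 2.42 RPKM in Cmi depletion. At clear gut 14 genes in labelled Trr depletion and 15 in Cmi depletion reached 10 RPKM, 11 in both, where 40.8%, 40.4% and 38.3% of all entries did.

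The most abundant genes include 3 that lie side by side on chromosome 3L (dm6). CG7924 runs from 14233469 to 14234609 on the plus strand, CG34244 from 14235053 to 14235941 on the minus strand and CG7906 from 14236635 to 14238272 on the plus strand. Gaps of 443 and 693 bases separate them, while no other pair of the 22 lies within 10 kb. The annotation gives their proteins 321, 112 and 356 residues, and 2, 2 and 3 exons.

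CG7924 measured 689, 2199 and 1383 RPKM at clear gut in labelled Trr depletion, Cmi depletion and wild type, against 1.49, 0.309 and 0.631 RPKM at blue gut. CG34244 measured 369, 1216 and 706 RPKM at clear gut, against 1.09, 0.614 and 0.418 RPKM at blue gut, in the same order. CG7906 measured 489, 1522 and 1044 RPKM at clear gut, against 1.40, 0.973 and 0.449 RPKM at blue gut. All 3 were highest in Cmi depletion and lowest in labelled Trr depletion at clear gut.

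At clear gut the 3 genes kept nearly fixed proportions to each other. Per length, CG34244 stood at 0.535, 0.553 and 0.510 times CG7924 at clear gut in labelled Trr depletion, Cmi depletion and wild type, and CG7906 at 0.710, 0.692 and 0.755 times. At blue gut, on few reads, the proportions varied: CG7924 and CG7906 had 38 and 44 reads in labelled Trr depletion and 8 and 31 in Cmi depletion. Such proportions at clear gut are not particular to adjacent genes. CG34193 and CG14664, on 2R and 3R, stood at 0.615 and 0.625 times wild type in labelled Trr depletion and 0.810 and 0.785 times in Cmi depletion. The flanking genes of the 3 differed far less between stages. The gene nuf, which acts in the recycling endosome and ends just before CG7924 starts, measured 47.5, 56.0 and 54.7 RPKM at clear gut, against 17.8, 20.1 and 17.7 RPKM at blue gut. On the other side fz, which encodes the Frizzled receptor, measured 12.2, 15.1 and 15.7 RPKM at clear gut, against 6.43, 7.29 and 5.25 RPKM at blue gut.

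**Figure D2:**
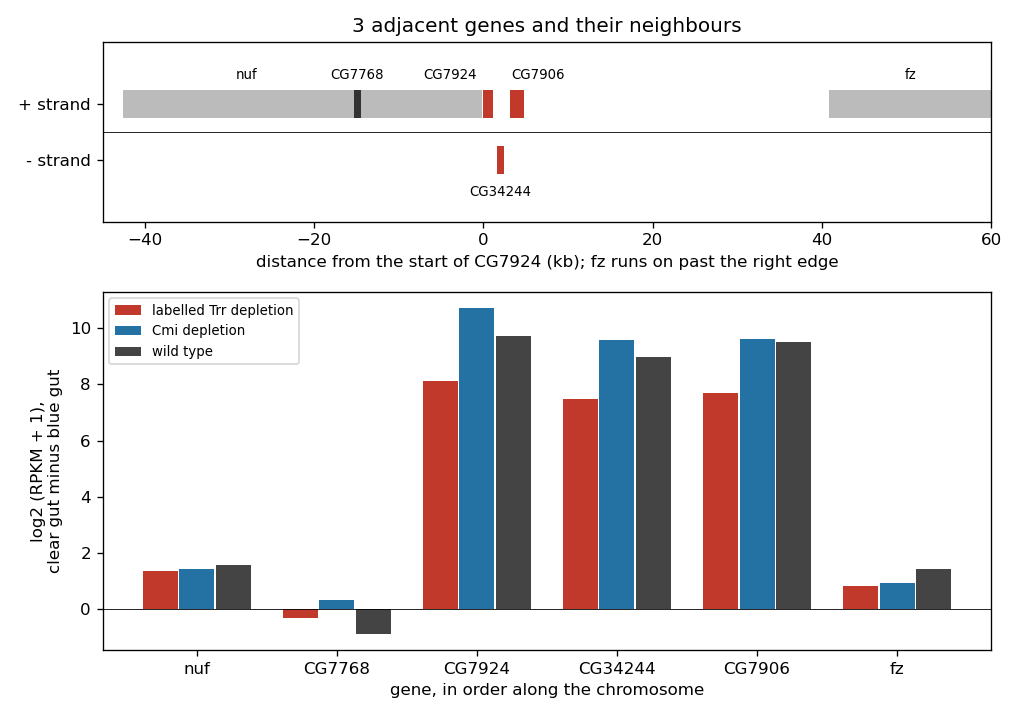
Upper panel, positions of CG7924, CG34244 and CG7906 (red) and their neighbours (grey, with CG7768 dark inside nuf) as distance from the start of CG7924 in kb, by strand. Lower panel, the change in log2(RPKM + 1) from blue gut to clear gut of each gene in labelled Trr depletion, Cmi depletion and wild type, where fz shows 0.83, 0.95 and 1.42 and CG7924 8.12, 10.71 and 9.73.

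CG34193 and CG14664, also among the 6 highest genes in wild type, varied less between genotypes. CG34193 (chromosome 2R, 17508995 to 17511394), a gene for a protein of 77 residues, measured 550, 724 and 894 RPKM at clear gut in labelled Trr depletion, Cmi depletion and wild type, against 0.320, 0.316 and 0.484 RPKM at blue gut. CG14664 (3R, 5224139 to 5225542), with 84 residues, measured 464, 583 and 743 RPKM at clear gut, against 0.340, 0.134 and 0.274 RPKM at blue gut. Their clear gut levels in labelled Trr depletion stood at 0.760 (0.741 to 0.779) and 0.797 (0.772 to 0.822) times Cmi depletion.

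CG34206 (2R, 22163738 to 22164594) lies inside an intron of the gene a (arc), on the opposite strand, and shares 0 exon bases with it. It measured 158, 596 and 307 RPKM at clear gut, against 0.446, 0.147 and 0 RPKM at blue gut, in labelled Trr depletion, Cmi depletion and wild type. The host gene, which encodes a PDZ domain protein, measured 13.4, 22.7 and 18.5 RPKM at clear gut, against 2.52, 2.58 and 2.54 RPKM at blue gut. The order of the genotypes at clear gut was the same in host and nested gene, at far lower levels in the host.

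CG5697 and CG2070 followed the same order. CG5697 (3R, 21015949 to 21017120) measured 58.5, 304 and 180 RPKM at clear gut, against 0.985, 1.39 and 0.906 RPKM at blue gut. CG2070 (2R, 7661855 to 7663408), of the short-chain dehydrogenase family, measured 80.4, 233 and 173 RPKM at clear gut, against 0.405, 0.123 and 0.157 RPKM at blue gut. At clear gut both were highest in Cmi depletion and lowest in labelled Trr depletion. CG42269 (3L, 6066296 to 6071545) did so too, with 25.4, 68.0 and 62.3 RPKM at clear gut, against 1.06, 2.42 and 0.293 RPKM at blue gut.

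Of the 22 genes, 6 were lowest at clear gut in Cmi depletion, among them CG33143 and CG11382. CG17386, which RefSeq now calls Achl (Achilles, a gene described for rhythmic expression in fly neurons), measured 113, 40.1 and 123 RPKM at clear gut in labelled Trr depletion, Cmi depletion and wild type, against 0.121, 0.526 and 0.183 RPKM at blue gut. It is a gene of 1 exon at 2R, 14420324 to 14424764. CG9822 (2R, 21346875 to 21347883), listed in RefSeq with the synonym Agr-like, measured 122, 46.2 and 175 RPKM at clear gut, against 0.049, 0.097 and 0 RPKM at blue gut. Its blue gut values rest on 1, 2 and 0 reads.

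CG3502 (2R, 23343405 to 23347641), of the M1 aminopeptidase family, measured 26.7, 4.49 and 26.9 RPKM at clear gut, against 0.338, 0.693 and 0.769 RPKM at blue gut. It shares 345 exon bases with CG9863 on the opposite strand, and it is the only one of the 22 marked for values off whole reads, at 2026.5 reads in labelled Trr depletion and 2064.5 in wild type at clear gut. CG9863 measured 3.65, 2.66 and 1.50 RPKM at clear gut, and its part in the result was not tested. CG13618, now Jhbp12 in RefSeq, a name that places it among the juvenile hormone binding proteins, measured 11.1, 4.04 and 10.5 RPKM at clear gut, against 0.125, 0.288 and 0.210 RPKM at blue gut. In all 4 genes the labelled Trr depletion and wild-type values lay closer to each other than to Cmi depletion at clear gut.

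CG32762 (X, 5500208 to 5501229), a gene for a protein of 200 residues, was on in 2 genotypes and not in the other. It measured 0.570, 65.7 and 59.0 RPKM at clear gut in labelled Trr depletion, Cmi depletion and wild type, against 0.439, 0.481 and 0 RPKM at blue gut. These values are 12, 1450 and 1256 reads at clear gut and 9, 10 and 0 reads at blue gut. In labelled Trr depletion clear gut stood at 1.30 (0.502 to 3.49) times blue gut, a difference not detectable at this depth, and in Cmi depletion at 137 (74.1 to 286) times.

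The other 8 genes stayed below 25 RPKM everywhere. CG30083, listed as SP217 among the serine proteases, measured 5.96, 9.25 and 22.4 RPKM at clear gut, and CG31205, listed as SPH227 among the serine protease homologues, measured 2.29, 11.5 and 10.3 RPKM. Both stood below 0.7 RPKM in every blue gut library. CG33143, CG15544, CG10713, CG44006 and CG11382 measured 6.11 to 13.3 RPKM at clear gut in labelled Trr depletion, 4.53 to 18.2 RPKM in Cmi depletion and 10.3 to 16.6 RPKM in wild type. CG42680, the shortest of the 22 with 60 residues, rested on 10, 30 and 67 reads at clear gut and 0, 1 and 0 reads at blue gut. In labelled Trr depletion its clear gut level had a lower counting limit of 2.18 times blue gut. With 3 reads put in place of the 0 at blue gut, the ratio came to 3.25.

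For the question of stage, clear gut was compared with blue gut in the depletion libraries alone. All 22 genes had higher values at clear gut in labelled Trr depletion and in Cmi depletion, where 60.7% and 72.3% of the 11485 entries with a mean of at least 1 RPKM in these 4 libraries did. All 22 passed that filter, through their clear gut values. A fold of at least 4 on the scale of RPKM + 1 was met by 17 of 22 in labelled Trr depletion (background 1.61%, or 1.18% of all 15741 entries) and by 18 of 22 in Cmi depletion (background 1.97%, or 1.44% of all entries). In both depletions 13 met it, against a background of 1.08%. Their median log2 change was 4.03 in labelled Trr depletion and 4.54 in Cmi depletion, beside 0.12 and 0.31 for all entries fitted.

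The genes that missed the fold of 4 differed between the depletions. In labelled Trr depletion they were CG32762 (log2 0.13), CG31205 (1.14), CG15544 (1.67), CG42680 (1.72) and CG10713 (1.83). In Cmi depletion they were CG3502 (1.70), CG11382 (1.76), CG33143 (1.91) and CG13618 (1.97). No gene missed it in both depletions.

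**Figure D3:**
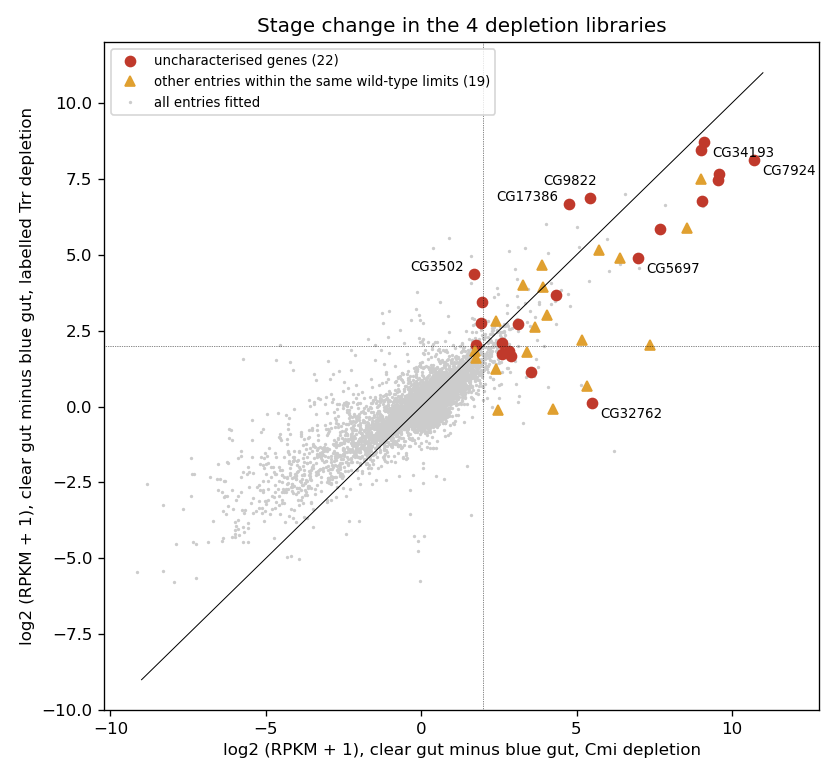
Change in log2(RPKM + 1) from blue gut to clear gut in labelled Trr depletion (vertical) against Cmi depletion (horizontal), for the 22 genes (red), the 19 other entries within the same wild-type limits (triangles) and all 11485 entries fitted (grey). Dotted lines mark a fold of 4 and the solid line marks equal change. CG32762 lies at 0.13 and 5.49, and CG3502 at 4.37 and 1.70.

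Other entries chosen on the same wild-type values also had a high share. Among the 19 other entries below 1 RPKM at blue gut and at least 10 RPKM at clear gut in wild type, 12 in labelled Trr depletion and 17 in Cmi depletion met the fold of 4, with medians of 2.61 and 3.91. The fitted entries below 1 RPKM in wild type at blue gut that are not of the 22 number 601 and include these 19. Of the 601, 22 entries in labelled Trr depletion (3.66%) and 38 in Cmi depletion (6.32%) met it, the 12 and 17 just given among them. Choice on low wild-type values at blue gut and high ones at clear gut thus went with a share above the background in the 22 and in the 19.

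The limma fit of the 4 depletion libraries, with genotype and stage as terms, called 0 of the 22 genes at an adjusted p of 0.05, and 0 of 11485 entries (background 0%). It has 1 residual degree of freedom. The smallest adjusted p in the fit, 0.0553, is a tied value that many entries outside the 22 share. Among the 22 it was reached by CG34193 (log2 8.91, SE 0.16), CG14664 (8.72, SE 0.20), CG42269 (4.01, SE 0.23) and CG30083 (2.92, SE 0.19). These were all higher at clear gut in 2 of 2 genotypes. Before adjustment 20 of the 22 were below 0.05, where 34.5% of all entries were, and the exceptions were CG32762 (adjusted p = 0.329, limma) and CG31205 (adjusted p = 0.155, limma).

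The depletions were compared with each other at clear gut, a comparison that uses neither library of the rule. Of the 22 genes, 16 were lower and 6 higher in labelled Trr depletion than in Cmi depletion, where 55.6% of all entries were lower. At least 2-fold lower on the RPKM + 1 scale were 11 of 22, where the background was 1.29%, and at least 2-fold higher were 4 of 22, where it was 5.67%. The median log2 difference was -0.81 for the 22 and -0.03 for all entries fitted. The 19 other entries within the same limits had 14 at least 2-fold lower, 0 at least 2-fold higher and a median of -1.36.

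The lowest ratio of labelled Trr depletion to Cmi depletion was that of CG32762, at 0.00867 (0.00447 to 0.0152). CG5697 stood at 0.193 (0.182 to 0.204), CG31205 at 0.200 (0.145 to 0.269), CG34206 at 0.265 (0.255 to 0.275) and CG34244 at 0.303 (0.295 to 0.311). The highest were CG3502 at 5.95 (5.31 to 6.67), CG17386 at 2.83 (2.73 to 2.93), CG13618 at 2.76 (2.19 to 3.49) and CG9822 at 2.63 (2.45 to 2.84), followed by CG33143 at 1.70 (1.56 to 1.84). The 3 adjacent genes on 3L lay between 0.303 and 0.322.

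**Figure D4:**
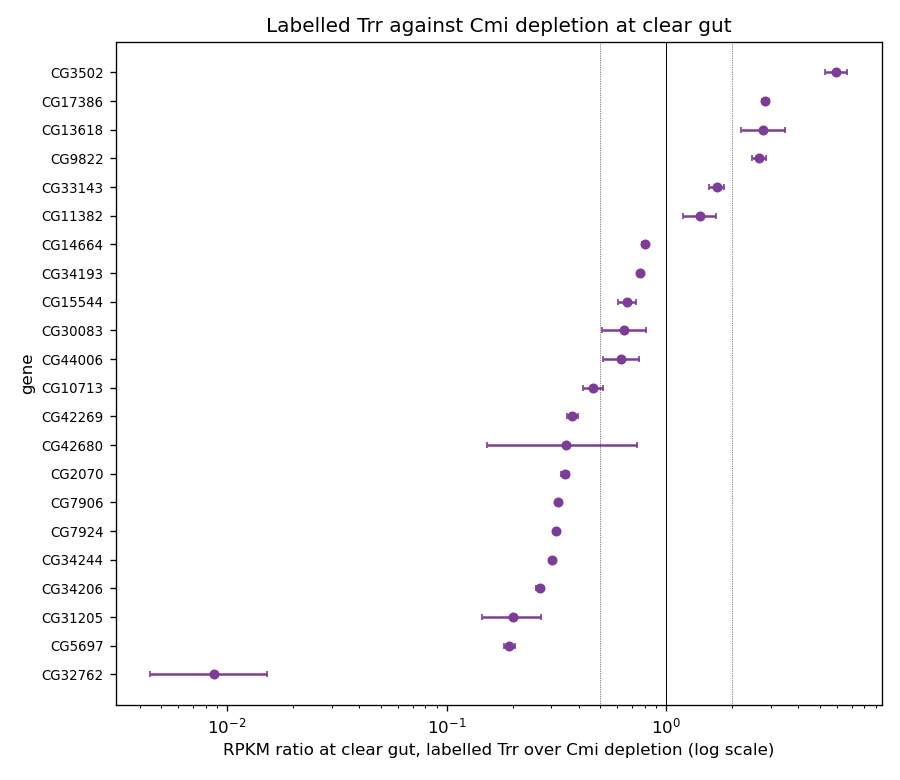
Ratio of RPKM at clear gut in labelled Trr depletion to Cmi depletion (log axis) for each of the 22 genes, with exact 95% counting intervals. The solid line marks 1 and the dotted lines mark 0.5 and 2. The ratios run from 0.00867 for CG32762 to 5.95 for CG3502.

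At blue gut 0 of 22 genes were at least 2-fold lower (background 1.5%) and 0 at least 2-fold higher (background 1.17%) in labelled Trr than in Cmi depletion on the RPKM + 1 scale, where values near 1 RPKM or below can hardly reach that fold. On the RPKM scale the counting interval of the ratio excluded 1 in the genes named next and spanned it in the others. These intervals hold no spread between pools, and the same was not counted over all entries. CG7924 stood at 4.81 (2.21 to 11.9), from 38 reads in labelled Trr depletion and 8 in Cmi depletion, and CG15544 at 2.48 (1.86 to 3.35), with CG2070 and CG31205 also above 1. CG17386 stood at 0.230 (0.112 to 0.435) and CG42269 at 0.436 (0.314 to 0.597), with CG3502 also below 1. Of the genes just named, only CG42269 lay on the same side of 1 at clear gut, at 0.374 (0.352 to 0.397). CG7924, CG15544, CG2070, CG31205, CG17386 and CG3502 lay on the opposite side of 1 at blue gut from their ratios at clear gut. The limma fit averages both stages and called 0 of the 22, and 0 of 11485 entries (background 0%), between the depletions, with 1 of the 22 (CG42269, log2 -1.06, SE 0.23, adjusted p = 0.92) and 3.8% of all entries below 0.05 before adjustment.

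Wild type was set beside the depletions at clear gut as a description only, since the rule asked for a high wild-type value there. The order was Cmi depletion above wild type above labelled Trr depletion in 10 of the 22 genes, wild type above Cmi depletion above labelled Trr depletion in 6, wild type above labelled Trr depletion above Cmi depletion in 5, and labelled Trr depletion highest in 1, CG13618. Among the 19 other entries within the same limits, 8 had Cmi depletion highest and labelled Trr depletion lowest. Another 8 had wild type highest and labelled Trr depletion lowest. Orders were not counted over all entries. At least 2-fold below wild type were 9 genes in labelled Trr depletion (background 1.14%) and 7 in Cmi depletion (background 4.12%), and 0 in either were at least 2-fold above (backgrounds 2.47% and 1.44%).

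Marker genes of other tissues also differed between the clear gut libraries. The 12 muscle genes summed to 611, 137 and 350 RPKM in labelled Trr depletion, Cmi depletion and wild type at clear gut, against 2000, 2576 and 2341 RPKM at blue gut. The 20 midgut genes summed to 6899, 5339 and 5593 RPKM at clear gut, against 40670, 47139 and 43296 RPKM at blue gut, and the 8 salivary glue genes to 13553, 2457 and 16999 RPKM, against 9198, 5824 and 22447 RPKM. At clear gut 1, 0 and 1 of the muscle genes, 0, 1 and 1 of the midgut genes and 1, 1 and 1 of the glue genes were at 0. The muscle, midgut and glue sums there were lowest in Cmi depletion, with the midgut sum close to that of wild type. The part of such shifts in the differences between genotypes was not tested. The 26 testis genes summed to 759, 811 and 491 RPKM at clear gut, against 779, 560 and 639 RPKM at blue gut, and 0 of the 23 fitted met the fold of 4 in either depletion.

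Tanning and ecdysone genes give the scale of the stage change around these genes. Among the 21 fitted genes of tanning and cuticle matrix, 4 in labelled Trr depletion and 7 in Cmi depletion met the fold of 4, with medians of 0.29 and 1.02. Among them e (ebony), which couples dopamine to beta-alanine, measured 435, 1160 and 612 RPKM at clear gut, against 1.44, 1.24 and 0.634 RPKM at blue gut, highest in Cmi depletion at clear gut. Ddc, which makes dopamine, measured 382, 147 and 408 RPKM at clear gut, lowest in Cmi depletion. Of the 21 genes, 5 were at least 2-fold lower and 2 at least 2-fold higher in labelled Trr than in Cmi depletion at clear gut, with a median log2 difference of -0.12. In the ecdysone response list 8 of 20 met the fold in labelled Trr depletion and 8 in Cmi depletion, with medians of 1.56 and 1.59.

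The genes lay on all 5 large chromosome arms, in shares that were not tested. On 2R lay 8 of the 22 (36.4%, against 20.4% of placed entries), on 3L 6 (27.3%, against 19.8%), on 3R 5 (22.7%, against 24.6%), on X 2 (9.09%, against 15.7%) and on 2L 1 (4.55%, against 18.7%). Their annotated proteins have a median of 300 residues (60 to 912), against 391 for all coding genes of the annotation, and 22.7% are under 200 residues, against 22.5%. Of the 40 distinct other genes next to them in order of start position, 0 met the fold of 4 in labelled Trr depletion and 0 in Cmi depletion, counts near the backgrounds of 1.61% and 1.97%, with median log2 changes of 0.13 and 0.26. The host gene a, which is not among these 40, did pass the fold of 4 in both depletions. It measured 13.4 RPKM at clear gut against 2.52 RPKM at blue gut in labelled Trr depletion, and 22.7 against 2.58 RPKM in Cmi depletion.

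The limits of the rule pass through a range of values. Just inside the blue gut limit lay CG11382 (0.998 RPKM), CG10713 (0.991) and CG5697 (0.906), and just outside it CG17181 (1.02), CG2962 (1.08) and CG14406 (1.10) in wild type. At clear gut CG14406 measured 63.0, 2.22 and 36.4 RPKM in labelled Trr depletion, Cmi depletion and wild type, and was lowest in Cmi depletion. Just inside the clear gut limit lay CG11382 (10.29 RPKM), CG31205 (10.3) and CG44006 (10.5), and just outside it CG7227 (9.50), CG4945 (8.13) and CG42867 (8.03).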

How the data were processed

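The deposited table holds RPKM per gene, made by the authors, and a gene length, for 6 libraries. Per the labels' protocols, poly(A) RNA was sequenced on an Illumina HiSeq and aligned to a reference by SOAPaligner/SOAP2. Bowtie and dm6 are listed in the submitters' processing notes. How reads were counted, strand included, is not given in the sources used here. Depth was recovered as the read number at which values become whole reads: 82.8% to 84.8% of low values lay within 0.1 of a whole read, and 99.97% to 100% were whole or off by 0.5 within the same tolerance. A read floor of 3 corresponds to 0.0251 to 0.710 RPKM over the 22 genes.

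Log2 values are log2(RPKM + 1), which understates folds of low genes. The limma package (3.58.1, trend and robust, statmod 1.5.0, R 4.3.3) was fitted to 11485 entries with a mean of at least 1 RPKM in the 4 depletion libraries, with Benjamini-Hochberg adjustment. A run on simulated data gave every entry the same residual spread, unlike these data, so nothing is drawn from it. The fit to the depletion libraries has 1 residual degree of freedom, which measures how far the stage change differs between depletions and not the spread between pools. Coordinates come from the Ensembl annotation of BDGP6 (dm6) and names from RefSeq Release 6, in which the 22 genes were all found. All 22 genes are named; the rule for values in full took the highest levels and stage changes, the extreme ratios between depletions, adjacency, current names and closeness to the limits. Members and lists were chosen with earlier results of these data known. Promoter and protein sequences were not analysed here. Alternatives and further lists are in the closing section.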

Additional observations from a re-analysis of the deposited data

Results flagged for a closer look

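None of the 22 genes had stage changes of opposite sign between genotypes. Among the 19 other entries within the same wild-type limits, 2 late puff genes of the salivary gland had a value just below 0 in labelled Trr depletion, with 1 library per group, and the difference between genotypes was not tested. Eig71Ed had a log2 stage change of -0.0797 in labelled Trr depletion, against 4.26 in Cmi depletion and 3.95 in wild type. Eig71Ef had -0.101 in labelled Trr depletion, against 2.47 in Cmi depletion and 3.46 in wild type. In labelled Trr depletion these rest on 47 reads at clear gut and 49 at blue gut for Eig71Ed, a ratio of 0.935 (0.613 to 1.42), and on 4 and 5 reads for Eig71Ef, a ratio of 0.780 (0.155 to 3.62). A stage difference in either direction was not detectable there at this depth.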

How the results depend on the processing

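The limma fit compares the stages within each genotype, and with 1 library per group no replicate could be left out or used as a block. The count of the 22 genes called by limma for the stage change, 0 as reported, was 6 with a pseudocount of 5 and 4 with quantile normalization. Of all 11485 entries these settings called 168 higher and 153 lower, and 118 higher and 92 lower, at clear gut. With all 6 libraries the count was 21, in a fit that includes the wild-type values used to choose the genes (adjusted p from 5.29e-04). That fit called 2777 higher (24.2%) and 1275 lower of 11467 entries. The count of the 22, like that of all entries, stayed at 0 with a pseudocount of 0.1, no filter, median-ratio scaling, no trend, and without entries off whole reads. For labelled Trr against Cmi depletion the count was 0 under all 8 alternatives. With wild-type limits of 0.5 and 20 RPKM, 10 genes remained in the rule, of which 10 in Cmi depletion and 9 in labelled Trr depletion met the fold of 4, 6 were at least 2-fold lower in labelled Trr than in Cmi depletion, and 6 were at least 2-fold lower than wild type in either depletion. Under the other settings run the counts were 12 to 22 (18 reported) in Cmi depletion and 12 to 21 (17 reported) in labelled Trr depletion for the fold of 4, and 9 to 11 (11 reported) between the depletions, and 11 to 17 (14 reported) below wild type. The log2 stage change kept its sign in all genes and settings run. Low read numbers at blue gut limit the folds of single genes.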

Other observations

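Of the 15 named genes that met the same wild-type limits, 11 were at least 2-fold lower and 0 at least 2-fold higher in labelled Trr than in Cmi depletion at clear gut. The genes below were chosen after their values were seen. PGRP-SB2, a peptidoglycan recognition protein gene, measured 4.27, 250 and 421 RPKM at clear gut in labelled Trr depletion, Cmi depletion and wild type, against 0.304, 0.541 and 0 RPKM at blue gut. The late puff gene Eig71Eb measured 2.76, 73.7 and 45.0 RPKM at clear gut, against 1.33, 0.837 and 0.244 RPKM at blue gut. Drsl2, a gene of the drosomycin family of peptides, measured 12.2, 130 and 70.1 RPKM, against 1.91, 2.62 and 0.137 RPKM. In each of these the labelled Trr depletion library was lowest at clear gut, as it was for CG32762. Others went the other way by less. At clear gut Eig71Eg, another late puff gene, measured 31.3, 28.2 and 23.0 RPKM, Eip78C, a nuclear receptor gene, 51.2, 39.4 and 41.8 RPKM, and Rgk3 14.7, 12.2 and 17.8 RPKM, each higher in labelled Trr than in Cmi depletion.

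Transcription factor genes met the limits too. The gene slbo, which encodes a C/EBP factor, measured 53.2, 192 and 91.7 RPKM at clear gut in labelled Trr depletion, Cmi depletion and wild type, against 0.506, 2.65 and 0.309 RPKM at blue gut. Hr4, a nuclear receptor gene, measured 17.1, 18.8 and 25.8 RPKM, against 0.175, 0.321 and 0.097 RPKM. The spread between genotypes was thus narrower in Hr4 than in slbo.

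Further lists, over their fitted genes, had these median log2 changes from blue gut to clear gut, in labelled Trr and Cmi depletion. They were 1.01 and 0.81 for 6 prepupal and pupal cuticle genes, 0.70 and 3.77 for 6 late puff genes, and -1.10 and -1.63 for 14 blood cell genes. They were -0.59 and -0.61 for 9 fat body genes, 0.58 and 0.55 for 9 genes of trachea, taste and bristle cells, and 0.59 and 0.79 for 15 imaginal disc genes.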
